A study of Mus musculus with 12 samples.

Results

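Beko cells, a mouse pre-T cell line, were infected with plasmids that express a hairpin, which targeted Hdac3 in 1 group (shHdac3) and was scrambled in the other. Their RNA was sequenced at 96 h, a time that the labels give as post-puro. Each group held 2 libraries, and the labels name 1 hairpin against Hdac3, so an effect of that hairpin on other transcripts cannot be told apart from an effect of Hdac3 loss. The comparison covers the 12482 gene symbols, of 23366 in the table, that had a normalized read count of 10 or more in at least 2 of these 4 libraries. The series holds 12 libraries in all. The other 8 come from Beko cells given for 24 h the histone deacetylase inhibitor apicidin at 0.01 µg/ml, the gamma-secretase inhibitor DAPT at 10 µg/ml, or DMSO as the control of each drug. Nothing in the labels ties replicates to separate cultures, and the p-values therefore reflect library-to-library spread that could be technical only.

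HDAC3 removes acetyl groups from histone tails and is the catalytic subunit of the NCoR co-repressor complex, in which NCOR1 both recruits and activates it and TBL1X, TBL1XR1 and GPS2 are further core subunits. Unliganded nuclear receptors and other repressors bring this complex to DNA. Pre-T cells pass the beta-selection step with a pre-T cell receptor, whose invariant chain is encoded by Ptcra, and with Notch signalling, which relays ligand binding to the DNA-bound factor RBPJ after cleavage by gamma-secretase. The series asked how HDAC3 acts at Notch target genes.

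Between 24673559 and 29004315 reads were assigned to gene symbols per hairpin library. Across genes, replicates correlated at r = 0.9945 (shHdac3) and 0.9952 (scrambled) on the log scale. Clustered histone genes took 19.5% to 21.4% of reads in every library, and the ribosomal RNA precursor Rn45s took 2.19% and 2.03% in the shHdac3 libraries against 3.19% and 2.80% in the scrambled ones. Of the symbols left out, 6947 were at 0 in all 4 libraries. Just inside the filter, 278 genes reached 10 in exactly 2 libraries, of which 131 did so in both scrambled libraries and 39 in both shHdac3 libraries, with a median mean count of 10.2. Just outside it, 322 genes reached 10 in 1 library, with a median mean count of 7.72.

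Hdac3 was at 774 and 819 normalized reads in the shHdac3 libraries and at 2012 and 1930 in the scrambled ones. The groups were far apart, with a 2.47-fold reduction (log2 change -1.31 ± 0.05 SE, limma adjusted p = 7.60e-25), so about 0.404 of the control transcript level remained. Over all genes, 5228 (41.9%) passed an adjusted p of 0.05, 22.5% higher and 19.4% lower, and the 2 groups did not overlap for 69.2% of genes. Against that background, 5 of the 6 NCoR complex genes tested passed, 3 higher and 2 lower, Hdac3 among the latter; 5 of the 6 are described here. Gps2 was at 809 and 812 against 625 and 600 normalized reads, a rise of 0.40 ± 0.07 on the log2 scale (adjusted p = 1.97e-06). Tbl1xr1 rose from 4219 and 4155 to 5339 and 5097 (log2 change 0.32 ± 0.04, adjusted p = 9.20e-08). Both genes had non-overlapping groups. Tbl1x changed by 0.18 ± 0.05 (adjusted p = 0.00488), but the call was lost with the authors' adjusted p, with DESeq2 on recovered reads and without shHdac3 replicate 1 (adjusted p = 0.126). Ncor1 did not pass, with a log2 change of 0.05 ± 0.05 (adjusted p = 0.422).

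**Figure D1:**
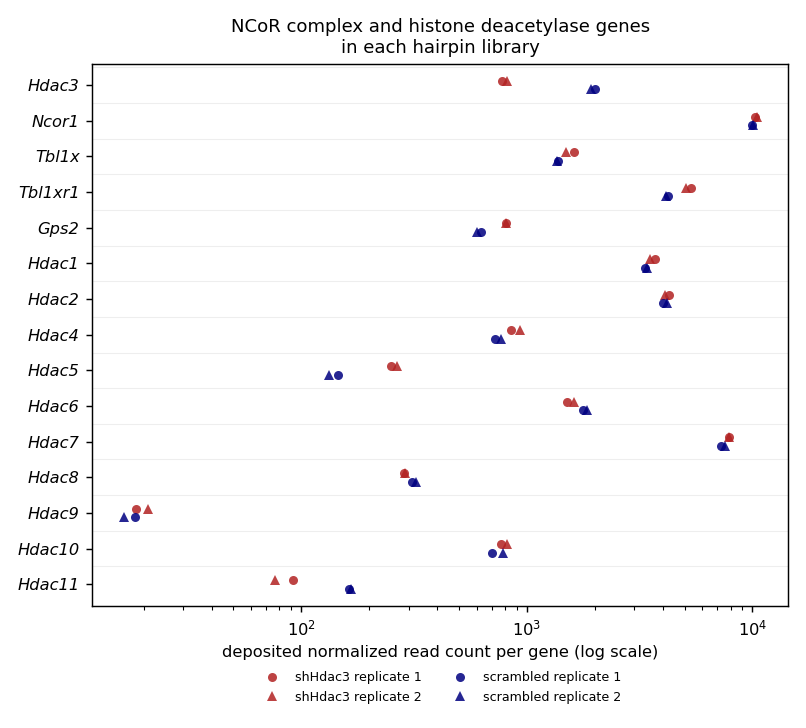
Deposited normalized read counts (x axis, log scale) of 5 NCoR complex genes and 10 other classical histone deacetylase genes in the 2 shHdac3 libraries (red) and the 2 scrambled libraries (dark blue), with circles for replicate 1 and triangles for replicate 2. Hdac3 and Hdac11 lie to the left in the knockdown, Hdac5 lies to the right, and Hdac2 and Hdac10 overlap.

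Among the 10 other classical histone deacetylase genes, 2 passed higher and 2 lower. Hdac5, a class IIa enzyme that binds the NCoR complex, rose 1.85-fold, from 145 and 133 to 249 and 266 normalized reads (adjusted p = 4.82e-08). Hdac11, the class IV enzyme, fell from 163 and 165 to 91.5 and 76.2 (log2 change -0.97 ± 0.15, adjusted p = 1.06e-06). Hdac6, the cytoplasmic tubulin deacetylase, fell by 0.21 ± 0.05 (adjusted p = 0.000706). Hdac4 changed by 0.25 ± 0.06 (adjusted p = 0.00144), a call that DESeq2 on recovered reads did not make (adjusted p = 0.0573). The paralogs Hdac1 and Hdac2 did not pass, at log2 changes of 0.10 ± 0.05 and 0.03 ± 0.04 (adjusted p = 0.0833 and 0.685), and neither did Hdac7, Hdac8, Hdac9 and Hdac10, at changes of 0.09, -0.14, 0.17 and 0.09.

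Of the 5228 genes that passed, 2811 were higher and 2417 lower in the knockdown, 53.8% higher; DESeq2 on recovered reads called 1709 and 1407, and the authors' adjusted p 1694 and 1267. With upper-quartile factors, which shift the median of all genes by -0.04, 43.5% of calls were higher. The called changes had a median size of 1.22-fold. Past 2-fold, 42 genes were higher and 330 lower; DESeq2 gave 20 and 216, a filter of 50 left 18 and 150, and without scrambled replicate 1 the lower count was 212. Of the 42 and 330, 25 and 198 had a mean count under 50. Genes that entered the filter through 1 group alone were by that higher in it: 131 through the scrambled libraries and 39 through the shHdac3 libraries. Why more entered through the scrambled libraries was not tested. No further count over all genes is given under 50, but the list counts below include such genes. Among genes with a mean count between 50 and 500, 363 passed higher and 903 lower. Between 500 and 5000 the counts were 2062 higher and 1095 lower, with a median of 0.06, and at 5000 or more 349 were higher and 131 lower. Gipr, the receptor of a gut hormone, was the 1 gene that had under 10 in both libraries of a group and 50 or more in both of the other: it was at 7.20 and 9.39 normalized reads with the Hdac3 hairpin and at 78.6 and 74.5 with the scrambled hairpin. No gene showed the opposite pattern.

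**Figure D2:**
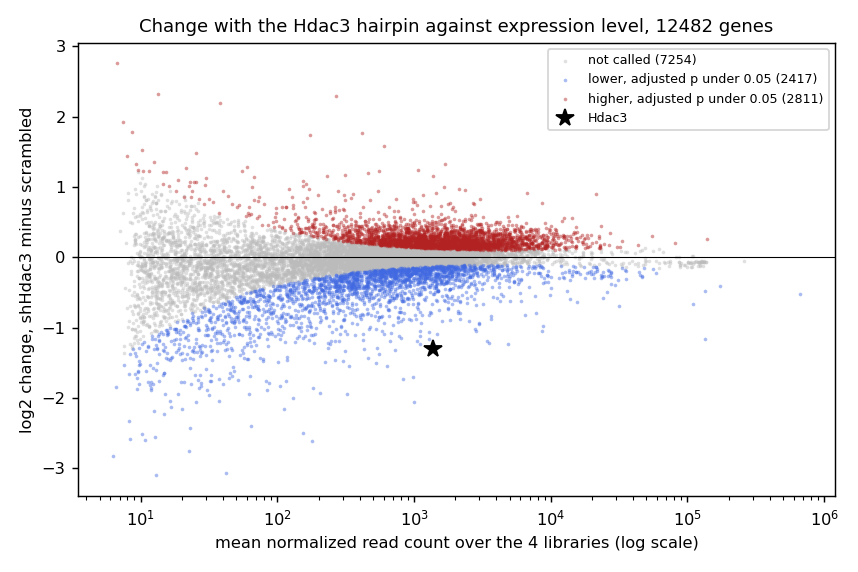
Log2 change of each of the 12482 genes (y axis, shHdac3 minus scrambled) against its mean normalized read count over the 4 libraries (x axis, log scale), coloured by the limma call; the star is Hdac3. Most points past 2-fold lie below the zero line at low counts, while red points are densest between 500 and 5000.

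Of 20 Notch target genes tested, 12 passed lower and 3 higher, with a median log2 change of -0.32 beside 0.00 for all genes. Ptcra was at 2913 and 2956 normalized reads in the shHdac3 libraries and at 6980 and 6765 in the scrambled ones, a 2.34-fold fall (log2 change -1.23 ± 0.04, adjusted p = 3.72e-27). Notch3, a receptor and itself a Notch target, fell from 8203 and 8381 to 4724 and 4705, and Notch1 fell from 25657 and 25710 to 20056 and 21738. The Notch-induced repressors Hes1, Hey1 and Heyl fell by 0.78, 0.62 and 0.58 on the log2 scale. Dtx1, an ubiquitin ligase of the pathway, fell by 0.55, and Nrarp, its feedback inhibitor, by 0.34; 79.4% of the exonic bases of Nrarp are covered by an opposite-strand gene in the GENCODE M21 models, and the strand setting of the counting is not given in the sources used here. Opposite-strand exons also cover 40.0% of Il12rb2, 37.3% of Tuba4a, 33.0% of Phlda1, 30.7% of Mpzl2, 27.5% of Kifc3, 26.4% of Ankrd37 and 22.3% to 24.4% of Spry1, Hdac4 and Bnip3, with the same limit. Trib2 fell by 0.27 and Igf1r, the insulin-like growth factor receptor, by 0.63, while Gata3, a T lineage factor, rose by 0.18 ± 0.05 (adjusted p = 0.00168). The components of the Notch pathway were divided, with 6 of 29 passing higher and 8 lower (median -0.04); DESeq2 called 3 and 3. In bulk RNA, fewer cells of a type and less RNA per cell cannot be told apart.

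The promoter of Ptcra is shown because this gene had the smallest adjusted p of the Notch targets. RefSeq (GRCm38.p6) places the 250 bases before its start at chr17:46763713-46763962 on the minus strand. Capitals mark TGGGAA, the core of the RBPJ recognition sequence, searched on both strands; its 2 matches begin 84 and 32 bases before the start.
Ptcra: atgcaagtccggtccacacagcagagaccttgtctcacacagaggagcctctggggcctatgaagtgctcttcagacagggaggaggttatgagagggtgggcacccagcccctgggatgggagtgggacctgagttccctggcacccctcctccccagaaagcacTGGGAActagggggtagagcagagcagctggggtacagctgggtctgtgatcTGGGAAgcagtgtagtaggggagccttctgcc
TGGGAA or its complement is in 24.1% of the 27025 symbols with a promoter in the table. It was in 2 of the 14 Notch target genes that could be matched there, Ptcra and Lfng.

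Other genes of the pre-T cell stage moved with Ptcra. Of 14 pre-T cell markers tested, 9 passed lower and 1 higher (median -0.21). Cd4 fell from 4930 and 4927 to 2160 and 2060 normalized reads, a 2.34-fold change of the same size as that of Ptcra (log2 change -1.22 ± 0.05, adjusted p = 9.68e-27), while Cd8a fell by 0.19 ± 0.05. The recombinase gene Rag1 fell from 38608 and 39585 to 24513 and 23816, Rag2 fell by 0.45, and Dntt, the terminal transferase that adds bases at V(D)J joints, fell by 0.49; 4 of 10 V(D)J recombination genes passed lower and 1 higher. Of 28 genes of pre-T cell receptor, CD3 and antigen receptor signalling, 10 passed higher and 6 lower. Cd3e fell by 0.55, Cd3g by 0.22 and the kinase gene Lck by 0.29. In the other direction, the adaptor gene Grap2 rose by 0.39 and the exchange factor gene Vav1 by 0.31. Cd247, which encodes the CD3 zeta chain, rose by 0.38, although exons of an opposite-strand gene cover 56.4% of its exonic bases.

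Of 23 T cell transcription factor genes, 9 passed higher and 7 lower, counts that DESeq2 brought to 5 and 4. Zbtb7b, the factor that directs thymocytes to the CD4 lineage, was at 32.9 and 45.9 against 85.7 and 81.8 normalized reads (log2 change -1.09 ± 0.22), and Ets2 fell by 0.83. Myb, a factor of progenitors and cycling thymocytes, rose from 11124 and 12010 to 17683 and 16442 (log2 change 0.56 ± 0.05, adjusted p = 3.14e-13), with Ikzf2 at 0.46 and Ikzf1 at 0.33. Tcf7, Lef1 and Bcl11b, which specify the T lineage, did not pass, at log2 changes of 0.01 ± 0.05, 0.03 ± 0.05 and -0.10 ± 0.05 (adjusted p = 0.929, 0.663 and 0.0616).

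Among called genes with a mean count of 50 or more, Gpr97, an adhesion G protein-coupled receptor gene, rose most. It was at 445 and 445 normalized reads with the Hdac3 hairpin against 85.7 and 95.4, a 4.88-fold rise (log2 change 2.29 ± 0.12, adjusted p = 1.39e-21). Cd93, a C-type lectin receptor gene, rose 3.40-fold, from 186 and 194 to 684 and 611. Itga4, the integrin alpha-4 chain, rose from 324 and 279 to 923 and 883 (log2 change 1.58 ± 0.08). The groups were well separated in each of these genes. Among 19 chemokine receptor and trafficking genes, 7 passed higher and 5 lower: Ccr9, the gut and thymus homing receptor, rose 2.34-fold (315 and 343 to 819 and 729) and Itgb7, the partner of Itga4, 1.39-fold, while the laminin receptor chain Itga6 fell by 0.63 on the log2 scale. Of 24 cytokine receptor genes, 9 passed higher and 4 lower. Kit, the stem cell factor receptor, rose from 1474 and 1426 to 2845 and 2836 (log2 change 0.97 ± 0.05, adjusted p = 4.74e-22). Il2rb rose by 0.85, Il7r by 0.55 and Il12rb2 by 0.45. Il10ra, the interleukin-10 receptor, went the other way, from 473 and 523 to 172 and 167 (log2 change -1.55 ± 0.10, adjusted p = 5.62e-18).

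All 8 Gimap genes, GTPases of lymphocyte survival, had positive log2 changes, and 6 passed (median 0.31), although DESeq2, the authors' adjusted p and the fit without scrambled replicate 2 each called 3. Gimap4 rose from 87.8 and 72.7 to 265 and 272 normalized reads (log2 change 1.74 ± 0.14), Gimap9 by 0.43 and Gimap6 by 0.39. Other rises past 2-fold were Cpa3, the mast cell carboxypeptidase gene (981 and 924 to 2396 and 2392), the proteoglycan gene Esm1, Cd160, Col15a1, the G protein regulator Rgs2, the ATP-gated channel P2rx7 and Tnfsf11, which encodes RANK ligand; these 6 had log2 changes between 1.09 and 1.24. The granzyme gene Gzma rose from 15340 and 14371 to 27610 and 27638 (log2 change 0.90 ± 0.05, adjusted p = 4.82e-20). It was the 1 member of 8 tested cytotoxic genes that passed higher, while 3 passed lower (median -0.23). The lower count was 1 with DESeq2 and with a filter of 50, and it also fell without scrambled replicate 1.

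**Figure D3:**
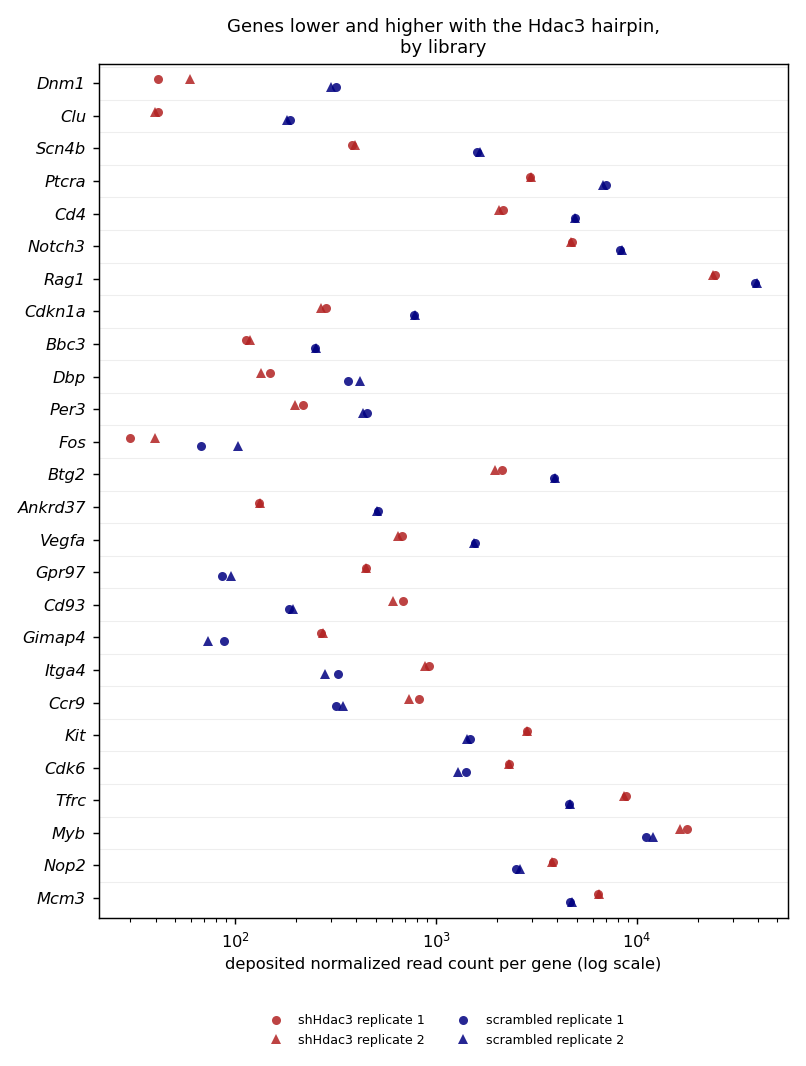
Deposited normalized read counts (x axis, log scale) of 26 genes in the 2 shHdac3 libraries (red) and 2 scrambled libraries (dark blue), with circles for replicate 1 and triangles for replicate 2. The shHdac3 points of the upper 15 genes, Dnm1 to Vegfa, lie left of both scrambled points, and those of the lower 11, Gpr97 to Mcm3, lie right of them.

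Among the largest falls were genes of neuronal and epithelial function. Dnm1, the dynamin of synaptic endocytosis, was at 41.1 and 59.5 against 315 and 298 normalized reads (log2 change -2.61 ± 0.16, adjusted p = 5.01e-19). Scn4b, a sodium channel beta subunit, fell 4.16-fold, from 1597 and 1643 to 382 and 395, and its relative Scn2b fell by 0.94 on the log2 scale. The calcium channel subunit Cacnb3 fell by 1.20, Chrna9, a nicotinic receptor subunit, by 0.70 and Dpysl2 by 0.44. Of 28 neuronal and synaptic genes tested, among 53 listed, 11 passed lower and 2 higher (median -0.23). The median of all genes depended on level: it was -0.21 with a mean count under 50 and -0.08 at 50 to 500. At 50 to 500, 903 of 3862 genes passed lower. The neuronal list was not matched for level. Rest, the repressor of such genes, fell by 0.16. Erbb3 and Ddr1, receptor tyrosine kinases of epithelia, fell 3.62-fold and 3.68-fold. Gfi1b, a repressor of blood lineages, fell 3.80-fold, from 349 and 297 to 75.1 and 93.9.

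Immediate early genes, which respond within minutes to growth signals, were lower as a group, in a list not matched for level. Of 15 tested, 12 passed lower and none higher (median -0.66 beside 0.00 for all genes). The count of lower members ranged from 8 to 13 over the alternatives. No member was higher by edgeR, DESeq2 or the authors' adjusted p either, and 0 were higher at an unadjusted limma p of 0.05; the same holds for every list below of which no member passed in 1 direction. Fos was at 29.8 and 39.6 against 67.4 and 103 normalized reads, a 2.38-fold fall (adjusted p = 1.76e-05). Ier3 was at 78.2 and 59.5 against 158 and 157 (log2 change -1.20 ± 0.16), and Egr1 was at 40.1 and 37.6 against 70.4 and 86.3 (log2 change -0.99 ± 0.22). Both libraries of each group lay on the same side for these genes, as they did for 69.2% of all genes. The messenger RNA decay factor Zfp36 fell by 0.92, Junb by 0.51, the phosphatase gene Dusp1 by 0.66, and the antiproliferative genes Btg2 and Btg1 by 0.93 and 0.62. Btg2 was at 2125 and 1971 against 3877 and 3920 normalized reads.

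Of 16 circadian clock genes, 9 passed lower and none higher (median -0.32), in a list also not matched for level. The output factor gene Dbp fell from 363 and 418 to 149 and 134 normalized reads (log2 change -1.46 ± 0.11, adjusted p = 2.93e-15), Per3 from 450 and 433 to 218 and 197, and Bhlhe40, a repressor of the clock loop, from 904 and 962 to 477 and 476. Nr1d1 and Nr1d2 encode the REV-ERB nuclear receptors, which silence genes by recruiting NCoR and HDAC3. They fell by 0.81 ± 0.16 and 0.43 ± 0.10, and Tef, a relative of Dbp, fell by 0.37. The core genes Arntl, Clock, Cry1 and Per2 did not pass, at log2 changes of 0.09 ± 0.06, -0.07 ± 0.07, 0.06 ± 0.07 and 0.12 ± 0.10.

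Promoters of 3 of these genes are shown because each holds the element its group is known for. Dusp1 (chr17:26508473-26508722, minus strand) and Btg2 (chr1:134079156-134079405, minus strand) carry TGACGTCA, the cyclic AMP response element, in capitals, 143 and 166 bases before the start. Per3 (chr4:151044666-151044915, minus strand) carries the D-box TTATGTAA, the site of DBP and TEF, 205 and 158 bases before the start. All are RefSeq, GRCm38.p6, and both strands were searched.
Dusp1: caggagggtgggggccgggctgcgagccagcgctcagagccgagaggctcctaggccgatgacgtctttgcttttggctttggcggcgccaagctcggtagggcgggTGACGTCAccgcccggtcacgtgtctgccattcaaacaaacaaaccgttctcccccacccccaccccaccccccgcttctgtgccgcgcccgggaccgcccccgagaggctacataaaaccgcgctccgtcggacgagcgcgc
Btg2: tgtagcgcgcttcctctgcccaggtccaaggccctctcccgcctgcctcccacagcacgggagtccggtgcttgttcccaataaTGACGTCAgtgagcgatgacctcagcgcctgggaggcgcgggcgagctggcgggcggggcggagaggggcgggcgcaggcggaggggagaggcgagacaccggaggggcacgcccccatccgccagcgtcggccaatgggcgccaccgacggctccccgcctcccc
Per3: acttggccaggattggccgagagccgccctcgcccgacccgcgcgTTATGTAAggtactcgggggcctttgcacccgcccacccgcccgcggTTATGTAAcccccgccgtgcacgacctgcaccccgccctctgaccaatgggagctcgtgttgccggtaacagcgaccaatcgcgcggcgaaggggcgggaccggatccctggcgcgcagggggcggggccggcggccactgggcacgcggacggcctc
TGACGTCA is in 1.77% of symbols with a promoter in the table and in 2 of the 13 immediate early genes matched. TTATGTAA is in 0.977% of symbols and in 1 of the 13 clock genes matched.

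Of 13 tested G1 cyclin, CDK and CDK inhibitor genes, 2 passed higher and 5 lower (median 0.07), and of 12 BCL2 family genes 2 passed higher and 3 lower (median -0.07), the lower count being 6 with upper-quartile factors. Cdkn1a, which encodes the CDK inhibitor p21, was at 282 and 268 against 773 and 782 normalized reads, a 2.82-fold fall (adjusted p = 3.88e-21), and Cdkn1b, which encodes p27, fell by 0.49 on the log2 scale. Of 19 p53 target genes, 10 passed lower and 1 higher (median -0.23): the BH3-only gene Bbc3, which encodes PUMA, fell from 248 and 251 to 113 and 118, Phlda3 by 0.49, Gadd45a by 0.41, Ccng1 by 0.36 and Trp53inp1 by 0.32, while Mdm2 did not pass (0.08 ± 0.05, adjusted p = 0.198). Bmf, another BH3-only gene, fell by 0.88, and Mcl1, a survival member of the family, rose by 0.19. The cyclin genes Ccnd2 and Ccnd3 fell by 0.84 and 0.47. Their partner gene Cdk6 rose from 1408 and 1277 to 2292 and 2304 (log2 change 0.78 ± 0.05, adjusted p = 2.24e-17), and Cdk2 rose by 0.27.

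Genes known to rise when cells are given histone deacetylase inhibitors were mostly lower: of 8 tested, 7 passed lower and 1 higher, with a median of -0.70. With apicidin in this series, 4 of the 8 passed higher and 2 lower (median 0.39). DAPT, which is not such an inhibitor, gave 5 higher and 2 lower (median 0.39). Clu, which encodes the chaperone clusterin, was at 41.1 and 39.6 against 187 and 181 normalized reads (log2 change -2.16 ± 0.17, adjusted p = 2.03e-14). Its change was also negative with apicidin, at -1.05 without passing (limma adjusted p = 0.0702), and with DAPT, at -1.53 (limma adjusted p = 1.25e-08). Txnip, the thioredoxin inhibitor, was at 5603 and 5652 against 11286 and 11933 (log2 change -1.04 ± 0.05, adjusted p = 2.31e-24). Gsn, the actin-severing gelsolin, fell by 0.36 and the linker histone gene H1f0 by 0.19, while the tubulin gene Tubb3 rose by 0.44. Cdkn1a is on this list and on the p53 list. Of 10 glucocorticoid receptor targets, 6 passed lower and 1 higher (median -0.38): Ddit4, the inhibitor of mTOR complex 1, fell from 4790 and 4776 to 2173 and 2012, Pik3ip1 by 0.48 and Tsc22d3 by 0.26, Sgk1 rose by 0.50, and Fkbp5 did not pass (0.00 ± 0.05, adjusted p = 0.994). Nr3c1, the receptor gene itself, rose by 0.42.

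Hypoxia genes and genes of glucose use were lower together. The hypoxia list holds targets of the factor HIF1 and also the factor genes Hif1a and Epas1. Of 17 hypoxia genes, 13 passed lower and none higher (median -0.38); of 17 genes of glycolysis and glucose uptake, 12 passed lower and none higher (median -0.25). Ankrd37 was at 132 and 132 against 512 and 507 normalized reads, a 3.84-fold fall (adjusted p = 4.72e-21). Vegfa, the vascular growth factor gene, was at 677 and 646 against 1552 and 1548 (log2 change -1.23 ± 0.06, adjusted p = 7.63e-23). The values of each group were close together and far from the other group. Adm fell by 1.09 and Ndrg1 fell by 0.87 on the log2 scale, the mitophagy receptor gene Bnip3 by 0.74 and the collagen prolyl hydroxylase gene P4ha1 by 0.63. Slc16a3, the lactate exporter, was at 109 and 114 against 242 and 283 (log2 change -1.22 ± 0.13), and Slc2a1, the glucose transporter GLUT1, fell 1.83-fold. Hk2, hexokinase 2, fell by 0.50, Pfkp by 0.50 and Gpi1 by 0.38. Hif1a itself did not pass (0.07 ± 0.05, adjusted p = 0.242), nor did the abundant enzymes Pkm, Ldha and Gapdh, at 0.00 ± 0.07, 0.09 ± 0.05 and -0.05 ± 0.07.

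Promoters of Ankrd37, Bnip3 and Slc16a3 are shown as genes of these lists that fell and that have a single listed start with ACGTG, the core of the hypoxia response element, before it (RefSeq, GRCm38.p6). Capitals mark ACGTG on either strand. Ankrd37 (chr8:45999851-46000100, minus strand) has it 241 and 6 bases before the start, Bnip3 (chr7:138909507-138909756, minus strand) has 1 palindromic match, and Slc16a3 (chr11:120948817-120949066, plus strand) has it 27 and 14 bases before the start.
Ankrd37: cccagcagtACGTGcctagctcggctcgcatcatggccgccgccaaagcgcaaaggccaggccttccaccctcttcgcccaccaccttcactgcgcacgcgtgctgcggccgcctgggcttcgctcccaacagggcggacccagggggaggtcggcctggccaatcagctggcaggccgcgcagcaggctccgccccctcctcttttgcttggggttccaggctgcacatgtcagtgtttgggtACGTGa
Bnip3: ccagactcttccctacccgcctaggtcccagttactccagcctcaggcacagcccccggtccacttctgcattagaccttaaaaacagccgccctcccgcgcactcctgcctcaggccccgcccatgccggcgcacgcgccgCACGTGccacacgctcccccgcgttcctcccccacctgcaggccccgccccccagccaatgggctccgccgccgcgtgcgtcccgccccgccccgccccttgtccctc
Slc16a3: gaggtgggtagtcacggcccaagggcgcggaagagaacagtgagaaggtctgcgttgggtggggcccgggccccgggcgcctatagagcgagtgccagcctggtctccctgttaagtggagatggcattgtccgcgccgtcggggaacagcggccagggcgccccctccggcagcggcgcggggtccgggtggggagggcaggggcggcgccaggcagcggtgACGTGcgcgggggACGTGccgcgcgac
ACGTG is in 18.5% of the 27025 symbols and in 11 of the 14 hypoxia genes that could be matched, Hif1a and Vegfa among them. Hif1a holds the element and did not pass.

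Genes of growth and DNA synthesis rose by small and even amounts. Of 27 ribosome biogenesis genes, 23 passed higher and none lower (median 0.35). Of 30 DNA replication genes, 27 passed higher and none lower (median 0.31), against 22.5% of all genes higher. That share depended on level: it was 2062 of 6016 genes with a mean count of 500 to 5000 and 349 of 761 at 5000 or more. Neither these lists nor those of the next paragraph were matched for level. Nop2, a nucleolar RNA methyltransferase gene, rose from 2495 and 2609 to 3809 and 3781 normalized reads, Utp20 from 1361 and 1369 to 1882 and 2136, and Mybbp1a and the spermidine synthase gene Srm by 0.46 and 0.40 on the log2 scale. Their groups did not overlap, which held for 69.2% of all genes. Among replication genes, the origin licensing genes Cdc6, Mcm3, Mcm5 and Mcm4 rose by 0.46, 0.46, 0.45 and 0.41, with Mcm3 at 6386 and 6460 against 4634 and 4720. The maintenance methylation genes Uhrf1 and Dnmt1 rose by 0.45 and 0.32. The share of reads from Rn45s, lower in both shHdac3 libraries as given above, moved opposite to these lists, and its part in the result was not tested. Without structural RNA and histone genes, 23 biogenesis and 27 replication genes were again higher.

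Other lists of proliferating cells moved the same way. Of 25 DNA repair and damage signalling genes, 14 passed higher and none lower (Chek1 0.38, Brca2 0.37). Of 28 mitosis genes, 14 passed higher and 1 lower, with a smaller median of 0.12 (Cdc25b 0.39, Aurka 0.23). Of 30 proteasome subunit genes, 20 passed higher and none lower (median 0.16), and of 15 heat shock genes, 9 passed higher and none lower (median 0.22), among them the mitochondrial chaperones Hspd1 at 0.35 and Hspa9 at 0.34. Of 32 ATF4 targets, amino acid and tRNA synthetase genes, 19 passed higher and 3 lower: the leucine transporter gene Slc7a5 rose from 3897 and 3981 to 5978 and 5763, Shmt2 and Mthfd2 of folate metabolism rose by 0.44 and 0.41, and Sars, the seryl-tRNA synthetase, fell by 0.35. Tfrc, the transferrin receptor, rose 1.89-fold, from 4594 and 4612 to 8800 and 8596, and Fbxl5, the iron-sensing ubiquitin ligase gene, fell by 0.67. Myc did not pass (0.05 ± 0.04, adjusted p = 0.390), while 3 partners of MAX that antagonize MYC fell: Mxi1 by 0.59, Mxd1 by 0.55 and Mxd4 by 0.48. Ribosomal protein genes did not follow: 22 of 37 passed lower and 1 higher, the exception being Rpl22l1. The lower count depended on single libraries: it fell most without scrambled replicate 1 and also fell without shHdac3 replicate 2. Of the 37, 36 had negative log2 changes in the main fit. Ribosomal protein genes share sequence with many pseudogenes.

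**Figure D4:**
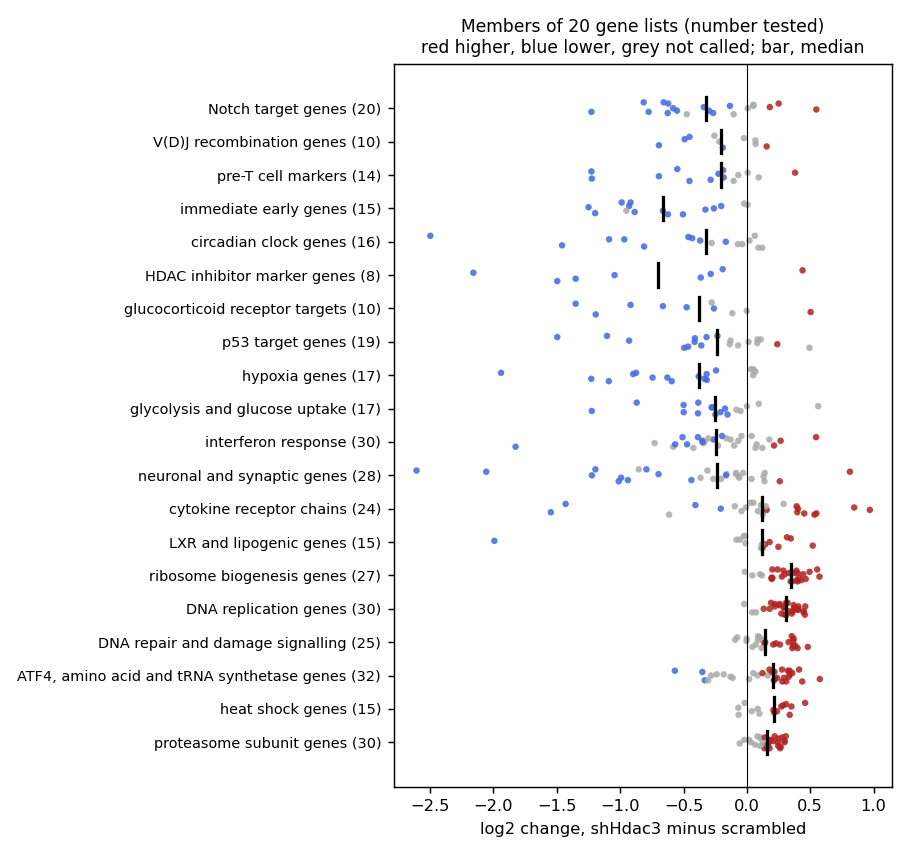
Log2 change (x axis, shHdac3 minus scrambled) of every tested member of 20 gene lists (y axis, number tested in brackets), with red for members that passed higher, blue for lower and grey for not called, and a black bar at the median of the tested members. The immediate early, clock, hypoxia and glycolysis lists hold no red point, and the ribosome biogenesis, DNA replication, DNA repair, heat shock and proteasome lists hold no blue one.

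Lipid genes moved in both directions. Of 15 LXR and lipogenic genes, 7 passed higher and 1 lower: the elongase gene Elovl5 rose by 0.52 and the fatty acid synthase gene Fasn by 0.35, while Elovl3, another elongase gene, was at 53.5 and 50.1 against 223 and 196 normalized reads (log2 change -1.99 ± 0.16, adjusted p = 1.89e-14). Of 23 cholesterol synthesis genes, 9 passed higher and 4 lower, with Idi1 at 0.47. Of 23 fatty acid oxidation and lipid storage genes, 4 passed higher and 5 lower, counts that DESeq2 brought to 1 and 2. Fabp5, a fatty acid binding protein gene, fell from 12203 and 11112 to 5974 and 5820, and Cpt1a, which passes fatty acids into mitochondria, rose by 0.38.

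Among 30 interferon response genes, 10 passed lower and 3 higher (median -0.25); the authors' adjusted p called 6 of the list lower. The RNA sensor gene Ddx58 fell by 0.47 on the log2 scale and Eif2ak2, which encodes PKR, by 0.35. Of 19 NF-kappaB genes, 7 passed lower and 5 higher: Nfkb2, the precursor of p52, fell from 1467 and 1512 to 698 and 747, the inhibitor genes Nfkbia and Tnfaip3 fell by 0.37 and 0.32, and the inhibitor gene Nfkbie rose by 0.73. Socs3, the feedback inhibitor of cytokine signalling, fell by 0.79. Of 12 small RNA pathway genes, 5 passed higher and 1 lower, among them Dicer1 at 0.37, Xpo5 at 0.37 and Dgcr8 at 0.34.

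Some of the largest changes lay beside each other in the genome. These groups were picked after their values were seen, and gene order was taken from GENCODE M21. On chromosome 8, Gpr56 and Gpr97 follow each other and rose by 0.91 and 2.29 on the log2 scale, and Kifc3, further along, rose by 0.69, while Cngb1 on the far side of Kifc3 was at -1.77, a call lost without scrambled replicate 2 (adjusted p = 0.202). Around Clu, the neighbours Scara3 and Gulo fell with it, at -1.08 and -1.74, though the call of Scara3 was lost without scrambled replicate 1 (adjusted p = 0.0738). Next to Scn4b, the run of Cd3e, Mpzl2, Mpzl3, Amica1 and Scn2b passed lower throughout, from -0.94 for Scn2b to -0.37 for Amica1. Mpzl2 was low, at 17.5 and 16.7 against 31.6 and 30.9 normalized reads; its call was lost without scrambled replicate 1, without scrambled replicate 2 and without shHdac3 replicate 2 (adjusted p = 0.191, 0.176 and 0.0535). The call of Amica1 was lost without scrambled replicate 1 (adjusted p = 0.0524) and without shHdac3 replicate 2 (adjusted p = 0.0796). Exoc3l4 fell by 1.72, from 1251 and 1282 to 392 and 375 normalized reads, together with Tnfaip2 at -0.99 and Gm266 at -1.09. Other called genes nearby went the other way, among them Eif5 beside Gm266 at 0.32, Dok4 near Gpr97 at -0.69 and Esco2 near Clu at 0.16. Ccdc135, next to Gpr97, was at 33.9 and 12.5 against 3.06 and 3.63 normalized reads and passed the filter through the knockdown libraries alone, so it is given as a value. Over all 11615 pairs of consecutive tested protein-coding genes, the log2 changes correlated at r = 0.133 (Spearman's rho = 0.109). That is a description across genes, which are not independent replicates. Of the 2234 pairs with both genes called, 61.0% moved the same way, and the share for pairs that are not neighbours was not computed.

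Markers of other cell types were partly at 0 in all 4 libraries. Pax5, Ebf1 and Ms4a1 of B cells, Elane and Cebpa of myeloid cells, Ncr1 and Klrk1 of NK cells, the globin genes, and Fcer1a, Ms4a2, Cma1 and Mcpt4 of mast cells were all at 0. The 5 of 13 mast and progenitor markers that were tested summed to 6115 and 6083 normalized reads in the knockdown and 4323 and 4034 in the control, nearly all from Kit and Cpa3, which rose, and Ly6a, which fell. Of 10 B cell markers, 3 were tested and all passed lower, summing to 76.1 and 78.2 against 132 and 128. The count fell to 1 with a filter of 50, and to 0 with DESeq2 and with the authors' adjusted p. It also fell when either scrambled library was left out. The 4 tested of 12 myeloid markers summed to 604 and 605 against 619 and 612, mostly Itgam and Csf3r, which did not pass. The 2 tested of 8 epithelial markers, Cdh1 and Cldn4, summed to 646 and 648 against 748 and 732. The tested NK and innate lymphoid markers, 3 of 8, summed to 203 and 215 against 233 and 217, and the tested erythroid and megakaryocyte markers, 5 of 11, to 263 and 227 against 332 and 289. The tested fibroblast markers were 3 of 8, with Pdgfrb at 1953 and 1971 against 1189 and 1181, while Col3a1 was at 0 and Dcn at or near 0.

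Apicidin and DAPT gave responses to set beside that of the hairpin, at 24 h instead of 96 h and with separate controls. Apicidin called 38.1% of its tested genes (18.2% higher, 19.9% lower) and DAPT 43.2% (20.1% higher, 23.1% lower). Of genes tested in both, 2461 were called in the knockdown and with apicidin, 47.7% of the knockdown's calls and 52.2% of apicidin's; 856 were higher in both, 875 lower in both, 423 higher in the knockdown and lower with apicidin, and 307 the reverse. With DAPT, 2896 were called in both, 55.7% and 52.8% of the respective calls; 531 were higher in both, 461 lower in both, 1160 higher in the knockdown and lower with DAPT, and 744 the reverse. Across genes, the log2 changes of the knockdown correlated with those of apicidin at r = 0.255 (rho = 0.197, 12233 genes) and with those of DAPT at r = -0.056 (rho = -0.174, 12388 genes). Tested as a difference of changes over all 12 libraries, 4359 of 13042 genes (33.4%) differed between knockdown and apicidin, with the knockdown higher for 18.3% and lower for 15.1%. Between knockdown and DAPT 5714 (43.8%) differed, with the knockdown higher for 23.8% and lower for 20%.

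Medians of the lists and tests of the difference follow. Notch targets had a median of -0.32 in the knockdown, -0.32 with apicidin and -0.79 with DAPT, and the V(D)J genes were at -0.20, -0.23 and -0.11. Equal medians did not mean equal members: 8 of 20 Notch targets were higher and 6 lower in the knockdown than with apicidin, and 4 of 10 V(D)J genes were higher and 1 lower. Ribosome biogenesis genes were higher in the knockdown (0.35), at -0.07 with apicidin and at -0.62 with DAPT; the difference passed for 24 of 27 members against apicidin and for all 27 against DAPT. DNA replication genes differed in 27 of 30 members against apicidin and 28 of 30 against DAPT, each time with the knockdown higher. Immediate early genes were lower in the knockdown than with apicidin in 14 of 15 members, and none was higher. Hypoxia genes were lower than with apicidin in 12 of 17 members and lower than with DAPT in 10 of 17. Glycolysis and glucose uptake genes had medians of -0.25 in the knockdown, 0.05 with apicidin and -0.27 with DAPT. Of these 17, 10 were lower and 1 higher in the knockdown than with apicidin. Against DAPT, 5 were lower and 4 higher. Of the 8 histone deacetylase inhibitor markers, 6 were lower in the knockdown than with apicidin and 1 was higher. Against DAPT, 5 of the 8 were lower in the knockdown and 0 were higher. The Gimap genes had a positive median in both, 0.31 in the knockdown and 1.25 with apicidin, and 5 of 8 were lower in the knockdown by the test of the difference.

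**Figure D5:**
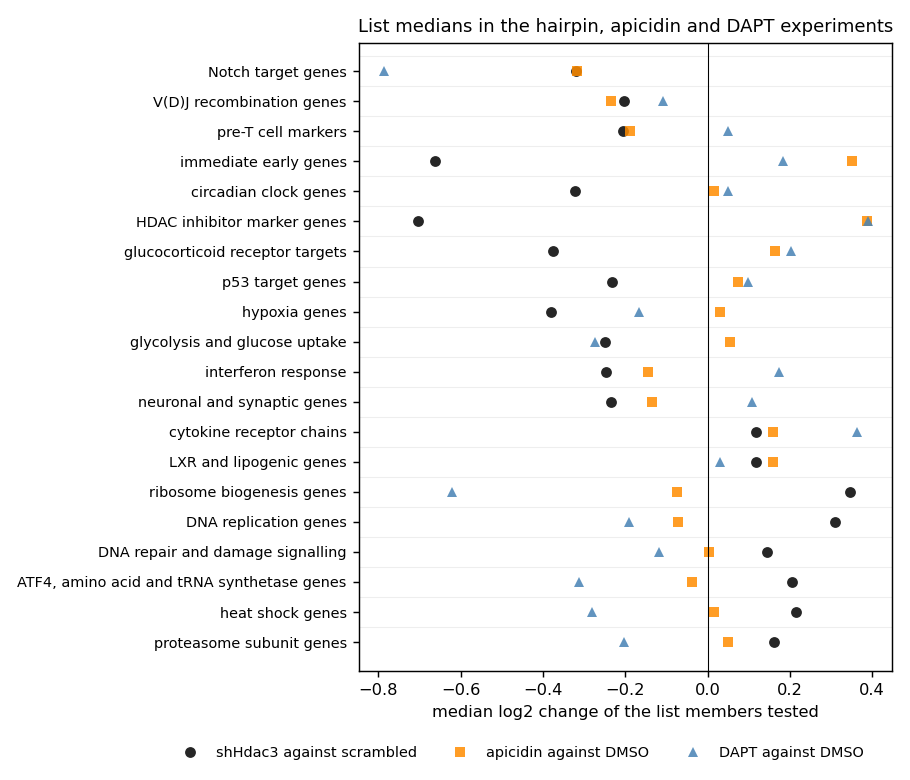
Median log2 change (x axis) of the tested members of 20 gene lists (y axis) in the knockdown against scrambled (black circles), apicidin against DMSO (orange squares) and DAPT against DMSO (blue triangles). The black circles lie apart from both drugs for immediate early genes (-0.66), ribosome biogenesis genes (0.35) and DNA replication genes (0.31), and the medians lie near those of apicidin for Notch targets and V(D)J genes, although 14 of 20 and 5 of 10 members differed by the test.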

How the data were processed

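RNA from Beko cells was made into ribosomal RNA-depleted stranded libraries, per the labels' protocols. The submitters' processing notes list the mm9 build and 4 tools (DESeq2, TopHat, Bowtie2, FastQC), with neither role nor version. The sources used here name no read counter and no strand setting. Per the file headers, the authors deposited a normalized signal per gene and library, a log2 fold change, a test statistic (a score not used here), and p-values with adjusted p-values, 1 table per experiment. The deposited signal is whole reads divided by 1 factor per library: 100% of values were whole multiples of the value of 1 read, within 1e-06. No further per-library column was left unmatched.

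The members and gene lists were chosen with earlier results of these data known. The main test was two-sided: log2(value + 1) was fitted with limma 3.58.1 in R 4.3.3, with a mean-variance trend, for genes that reached 10 in 2 or more of 4 libraries, with Benjamini-Hochberg adjustment over all of them at 0.05. The pseudocount of 1 understates fold changes of low genes. Differences from apicidin or DAPT were tested with limma over 12 libraries on recovered reads scaled with 1 set of factors. Lists were described by counts and medians, without a test. Alternatives were edgeR 4.0.16 and DESeq2 1.42.0 on recovered reads, the authors' adjusted p, other factors, pseudocounts and filters, a fit without structural RNA and histone genes, a replicate block, and each library left out.

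Genes were named by a rule: Hdac3, the NCoR complex and deacetylase genes, Notch targets, the 20 largest rises and falls among called genes of mean 50 or more, members of each list with the largest change, members given as values without a call, the 8 genes that differed most from each drug in each direction, and genes under 10 in a group and at 50 or more in the other. Some genes that the rule allows are not reported here; list members outside the 6 largest changes, and neighbours in the genome, were picked after their values were seen. Simulated reads of the shHdac3 comparison (12371 genes) took their spread from the hairpin libraries. Each fold change was given to 50 genes, drawn above a low mean count. The test found 60% of the genes given a 1.25-fold change, 86% given 1.5-fold, 94% given 2-fold and 100% given 4-fold. It made 8 false calls. Far fewer genes were changed than the 5228 called in the data, so these rates need not hold there. Promoters and gene order came from RefSeq (GRCm38.p6) and GENCODE M21, not from mm9. Normalized counts depend on transcript length and are not compared between genes.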

Additional observations from a re-analysis of the deposited data

Results flagged for a closer look

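Every result here was singled out by the test of a difference between the knockdown's change and a drug's change (limma over 12 libraries, Benjamini-Hochberg adjusted p under 0.05, 2 libraries a group). The times differ (96 h against 24 h), so agent and time cannot be told apart. Against apicidin, 2388 genes had a higher change in the knockdown and 1971 a lower one; against DAPT these were 3101 and 2613.

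Several abundant genes went opposite ways in knockdown and apicidin. Oprk1, an opioid receptor gene, rose by 0.83 on the log2 scale in the knockdown and was at -1.95 with apicidin, a difference of 2.77 ± 0.07 (SE, adjusted p = 3.87e-18). Fbp1, which encodes a gluconeogenic phosphatase, differed by 1.72 and the adhesion receptor gene Gpr56 by 1.98, each higher in the knockdown. Txnip was at -1.04 in the knockdown and at 0.77 with apicidin, a difference of -1.82 ± 0.06 (adjusted p = 5.78e-17), and Gsn differed by -1.23, Ddit4 by -1.48 and Il10ra by -2.09. The glucose transporter gene Slc2a1 and the hexokinase gene Hk2 were lower in the knockdown and higher with apicidin, with differences of -1.45 and -1.28. With DAPT these genes were also lower, at -0.33 and -0.49.

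Against DAPT, Cd4 differed by -1.68, Btg2 by -1.62, Gsn by -1.83 and Txnip by -1.61, all lower in the knockdown and higher with DAPT. Dtx1 fell in both, with log2 changes of -0.55 in the knockdown and -3.05 with DAPT, a difference of 2.51. Oprk1, Gpr56 and Fbp1 were higher in the knockdown and lower with DAPT, with differences of 4.02, 3.27 and 2.65.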

How the results depend on the processing

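With 2 libraries a group, depth limits genes of low counts most. DESeq2 called 1709 genes higher and 1407 lower, and the authors' adjusted p 1694 and 1267, against 2811 and 2417; the cause was not tested. Past 2-fold, DESeq2 called 20 higher and 216 lower, the authors' deposited p-values 20 and 202, a filter of 50 left 18 and 150 since it tests fewer low genes, and a pseudocount of 5, which shrinks low genes, left 24 higher. Leaving out each library gave 2268 to 2578 higher, 1733 to 2167 lower, 31 to 44 higher past 2-fold and 212 to 362 lower past 2-fold, the lowest without scrambled replicate 1. Hdac3 lay between -1.35 and -1.27 in every alternative. The differences from apicidin (1943 to 2248 higher, 1591 to 1860 lower when a library was left out) and from DAPT (2674 to 2980 and 2179 to 2472) stayed within 1.5 times.

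Replicate numbers are not stated to pair libraries, and same-numbered deviations correlated at 0.01105; a replicate block gave 2861 higher and 2466 lower genes. With DESeq2, list counts moved from 9 to 5 higher and 7 to 4 lower (T cell transcription factors), 5 to 3 lower (trafficking), 6 to 3 higher (Gimap), 7 to 4 lower (NF-kappaB), 4 to 2 lower (cholesterol), 3 to 1 lower (ATF4 and tRNA synthetase) and 3 to 1 higher (interferon). With the authors' adjusted p, neuronal genes moved from 11 to 7 lower and interferon genes from 10 to 6 lower; B cell markers went from 3 to 0 lower with both. With upper-quartile factors 3 mitosis genes were lower, against 1, and 1 DNA repair gene, against 0. Of 191 named genes that passed, 182 kept the call in every alternative that tested them, and none changed direction.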

Other observations

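Of 31 tested genes of the cytoskeleton and of endocytosis, 13 passed higher and 3 lower, beside 22.5% of all genes higher and 19.4% lower. The higher share depended on level: it was 2062 of 6016 genes with a mean count of 500 to 5000 and 349 of 761 at 5000 or more. This list was not matched for level. With upper-quartile factors, 5 passed lower. Flna, the actin cross-linker filamin A, rose from 9724 and 9991 to 13658 and 14556 normalized reads (log2 change 0.52 ± 0.05, limma adjusted p = 8.63e-13), the tubulin gene Tuba4a rose by 0.50, and Msn, which links actin to the membrane, rose by 0.39. Anxa2, an annexin gene, fell from 19234 and 18294 to 12486 and 11743.

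Of 12 genes that are induced by MAP kinase signalling and restrain it, 5 passed higher and 2 lower. The phosphatase gene Dusp4 rose from 355 and 333 to 598 and 614 normalized reads (log2 change 0.82 ± 0.08, adjusted p = 8.30e-12), Spry1 rose by 0.45 and Etv5 by 0.38, whereas Phlda1 fell by 0.58 and Dusp1 by 0.66. Of 13 acetyltransferase and BET reader genes, 4 passed higher and 2 lower: the acetyltransferase genes Kat6b and Kat2b fell by 0.40 and 0.31, Kat6a rose by 0.19, Kat2a was at 0.17 with its call lost without scrambled replicate 1 (adjusted p = 0.166), and Brd2 and Brd3, readers of acetylated histones, rose by 0.30 and 0.21. Tet1, which oxidizes methylated cytosine, fell by 0.53; of 7 DNA methylation genes tested, 3 passed higher and 2 lower.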
